A study of Mus musculus with 35 samples.

Results

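The BCL2 family decides whether a cell permeabilizes its mitochondria and dies, and 10 of its genes were followed here through primary and metastatic pancreatic tumor cells. They were *Bcl2l11*, *Bmf*, *Bik*, *Bbc3*, *Pmaip1*, *Bcl2*, *Bcl2l1*, *Mcl1*, *Bax* and *Bak1*, taken by gene symbol from the 53465 genes of a count table, and each symbol had 1 identifier. The table holds RNA-seq read counts from 35 libraries of mKate2+ tumor cells that were sorted from nude mice bearing KC-shSmad4 cells. KC-shSmad4 cells come from mice with pancreatic ductal adenocarcinoma (PDAC) that carry a *Ptf1a*-driven Cre, which switches on, from *Rosa26*, the transactivator rtTA3 with mKate2, while a GFP-linked shRNA against *Smad4* at *Col1a1* is switched on by doxycycline (Dox). The cells were placed in the pancreas (primary tumor), in the spleen with its removal afterwards (liver metastasis) or in the tail vein (lung metastasis), so organ and route of injection cannot be told apart.

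All hosts were female *Foxn1* nu mice, 6 to 8 weeks of age, which lack T cells but keep other immune cells. All were fed Dox chow, so that every tumor grew with the shRNA on. By the study's account, Dox continued in the groups labelled Smad4 off and was withdrawn in those labelled Smad4 on. Withdrawal came 4 weeks after injection into the pancreas, 5 weeks for the liver and 6 weeks for the lungs. The age of the tumors thus also differed between organs. Cells were sorted 7 or 14 days after the withdrawal. Libraries labelled off and on numbered 3 and 2 in primary tumors, 2 and 3 in liver and 4 and 2 in lung metastases on day 7. The day 14 groups held 2 and 3 (primary tumors), 3 and 3 (liver) and 4 and 4 (lungs), which gives 18 labelled off and 17 labelled on. Cre is driven by a pancreatic promoter and mKate2 marks cells in which it once acted. The labels name neither the cell line nor the shRNA of a library, and tie a library only to a mouse number, so the P values measure the spread between these libraries.

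Totals ran from 11885461 to 43571007 counts per library (median 19415320), and the floor of 3 counts lies at 0.0689 to 0.252 CPM, which is counts scaled to the size of the library. *Smad4* mRNA went against the labels: it ranged from 68.3 to 147 CPM where the label was Smad4 off and from 14.7 to 22.3 CPM where it was Smad4 on. Whether the Dox state of each library follows its label was therefore not settled here. Groups are named as labelled throughout, and each difference is labelled on minus labelled off, which is lower minus higher *Smad4* mRNA. The epithelial genes of the tumor cells (*Krt8*, *Krt18*, *Krt19*, *Krt7*, *Epcam* and *Cdh1*) summed to 2538 to 7699 CPM in primary tumors. They summed to 6142 to 14526 CPM in lung metastases and 12575 to 16853 CPM in 10 of the 11 liver libraries. The remaining liver library, labelled Smad4 off, day 7, replicate 2, and the one given as paired-end, stood apart at 3810 CPM. Its 7 fibroblast genes summed to 36196 CPM against 262 to 4383 CPM in the other liver libraries, and its median correlation was 0.949 with the primary tumors against 0.892 with the other liver libraries. Liver differences whose groups hold it are also given without it where they turn on it. Counts on the mitochondrial gene *mt-Co3* were present in 10 libraries, 4 of liver, this one among them, and 6 of lung.

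BCL2 family proteins share short BCL2 homology motifs and act on the outer mitochondrial membrane. BH3-only proteins respond to stress or loss of survival signals. They bind anti-apoptotic members, which otherwise hold back the pore-forming effectors BAX and BAK, and some activate the effectors directly. Once the effectors assemble, cytochrome c leaves the mitochondria and caspases are activated. TGFβ, which signals to the nucleus through SMAD4 and its partner SMADs, is known to induce the BH3-only genes *Bcl2l11* and *Bmf* in several epithelia, and PDAC cells are known to depend on MCL1 and BCL-XL.

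All 10 genes are protein-coding on GRCm38. The BH3-only genes are *Bcl2l11* (BIM, chromosome 2, 128126038 to 128162547, plus strand), *Bmf* (chromosome 2, 118528757 to 118549687, minus strand), *Bik* (chromosome 15, 83526862 to 83544635, plus strand), *Bbc3* (PUMA, chromosome 7, 16308393 to 16318205, plus strand) and *Pmaip1* (NOXA). The anti-apoptotic genes are *Bcl2* (chromosome 1, 106538178 to 106714274, minus strand), *Bcl2l1* (BCL-XL, chromosome 2, 152780668 to 152831728, minus strand) and *Mcl1* (chromosome 3, 95658788 to 95663176, plus strand). The effectors are *Bax* (chromosome 7, 45461697 to 45466898, minus strand) and *Bak1* (chromosome 17, 27019810 to 27029009, minus strand). Of the exonic bases of *Bak1*, 25.5% are shared with *Ggnbp1* on the other strand, which held 16 to 63 counts per library. *Bcl2* shares 6.09% with the antisense gene D630008O14Rik, and *Bax* shares 12.2% with Gm45808 on the same strand, which had 0 counts. The strand setting of the counting is not stated in the sources used here, so reads from the shared stretches of *Bak1* and *Bcl2* cannot be assigned to one gene. For the shared stretch of *Bax* no strand setting would separate the genes.

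The promoters below belong to the members that differed between lung metastases and primary tumors within both labels, as described further on, and whose windows hold no annotated exon. *Bik* and *Pmaip1* also differed, and none is printed for them. Each sequence is the 250 bases before the first start site that RefSeq gives the gene on GRCm38.p6, written 5′ to 3′ on the strand of the gene. For *Bbc3* that start lies inside the GENCODE span given above, so its window is within the gene by that annotation. Capitals mark the SMAD-binding letters CAGAC or their reverse complement GTCTG, and the GC-rich SMAD letters GGCGC or their reverse complement GCGCC, which shared no base with the former in these windows.
Bcl2l1, chr2:152831729-152831978, minus strand: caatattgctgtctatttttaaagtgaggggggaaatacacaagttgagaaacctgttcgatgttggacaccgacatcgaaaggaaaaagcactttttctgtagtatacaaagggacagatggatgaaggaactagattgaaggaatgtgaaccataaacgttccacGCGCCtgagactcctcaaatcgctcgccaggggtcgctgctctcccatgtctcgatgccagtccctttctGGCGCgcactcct
Mcl1, chr3:95658471-95658720, plus strand: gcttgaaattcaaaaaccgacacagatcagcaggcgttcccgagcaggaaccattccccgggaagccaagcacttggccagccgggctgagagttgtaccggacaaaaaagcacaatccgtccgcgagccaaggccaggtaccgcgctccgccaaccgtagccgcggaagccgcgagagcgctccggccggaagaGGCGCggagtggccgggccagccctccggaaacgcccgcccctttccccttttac
Bax, chr7:45466899-45467148, minus strand: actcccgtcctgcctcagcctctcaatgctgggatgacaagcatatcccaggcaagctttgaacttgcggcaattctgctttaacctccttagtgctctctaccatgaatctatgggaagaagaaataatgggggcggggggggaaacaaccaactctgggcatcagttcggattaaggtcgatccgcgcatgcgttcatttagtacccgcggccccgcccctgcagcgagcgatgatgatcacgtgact
Bbc3, chr7:16309333-16309582, plus strand: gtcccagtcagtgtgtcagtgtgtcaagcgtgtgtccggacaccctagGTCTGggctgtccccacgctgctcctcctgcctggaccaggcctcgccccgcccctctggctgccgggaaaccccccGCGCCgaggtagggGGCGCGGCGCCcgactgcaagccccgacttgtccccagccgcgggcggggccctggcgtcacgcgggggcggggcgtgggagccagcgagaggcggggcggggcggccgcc
The *Bbc3* window holds 1 match to CAGAC and 4 to GGCGC, the *Bcl2l1* window 0 and 2, and the *Mcl1* window 0 and 1. The *Bax* window holds 0 of either. Among 32851 windows of 27025 genes, CAGAC occurs in 42.2% and GGCGC in 32%, so such matches are common and say nothing of binding here. GC content is 76.4% in the *Bbc3* window, 64.4% in that of *Mcl1*, 54% in that of *Bax* and 47.6% in that of *Bcl2l1*.

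Per kilobase of exon, *Mcl1* was the most abundant member, at a mean of 90.5 CPM per kb over the 35 libraries (60.4 to 138). *Pmaip1* followed at 49.5 (15.3 to 151), *Bax* at 47.1 (26.3 to 87.5), *Bcl2l1* at 33.5 (16.1 to 54.0) and *Bak1* at 25.7 (18.6 to 32.4). These ranges over the 35 libraries overlapped between neighbors, whereas those of distant members, such as *Mcl1* and *Bak1*, did not. The order within single libraries was not examined. *Bbc3* lay lower at 13.2 CPM per kb (6.70 to 31.6), and *Bcl2l11* at 5.37 (4.19 to 7.05), *Bmf* at 4.27 (1.42 to 7.98) and *Bcl2* at 3.52 (2.61 to 5.08) formed an overlapping low group. *Bik* had the lowest mean over the 35 libraries, 2.35 CPM per kb (0.325 to 8.45), on 4 to 240 reads per library. In the liver its mean of 3.74, on the same length, lay above those of *Bmf* (3.12) and *Bcl2* (3.53). With the longer GENCODE M21 length of *Bik* its mean over the 35 libraries was 1.40 CPM per kb. The mean of the most abundant BH3-only gene, *Pmaip1*, changed its place with the organ, at 24.6 CPM per kb in primary tumors, under *Bax* (32.7) and *Bak1* (25.7), and 68.2 in liver metastases, above *Bax* (50.7).

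**Figure D1:**
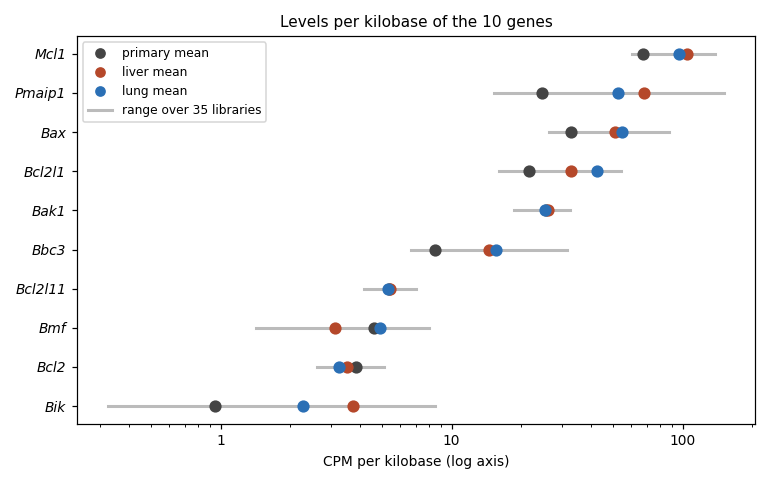
Levels of the 10 members in CPM per kilobase of exon (log axis), where points are the means of the 3 organs and grey lines span the 35 libraries. By the mean over the 35 libraries, *Mcl1* lay at the top with 90.5 and *Bik* at the bottom with 2.35 CPM per kb.

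**Figure D2:**
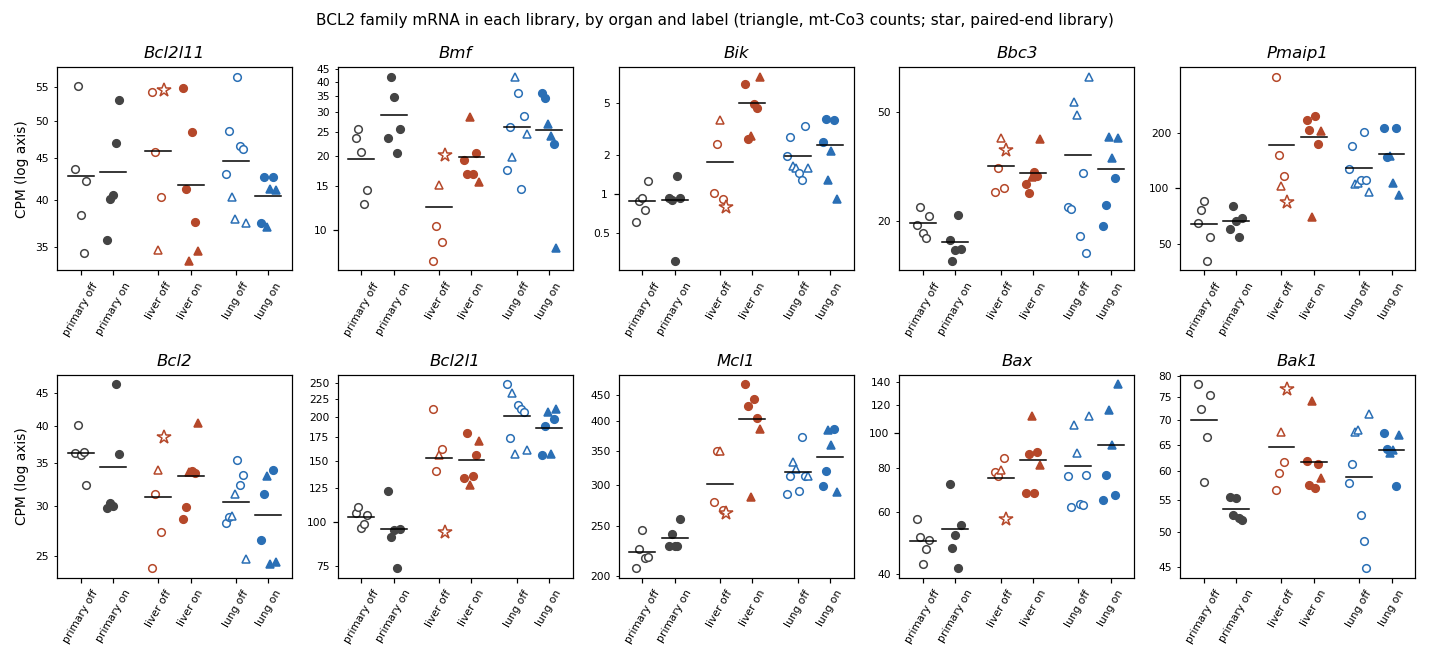
CPM of each member in each of the 35 libraries (log axis), by organ and *Smad4* label; open symbols are labelled off, filled symbols labelled on, triangles mark libraries with *mt-Co3* counts, the star is the paired-end liver library and bars are means. Most label groups overlapped within an organ, whereas *Bcl2l1* in the lungs (156 to 248 CPM) lay above every primary tumor (73.9 to 123 CPM).

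The first question was whether the members changed with the *Smad4* label within an organ. With the study's thresholds, a change over 2-fold and a Benjamini-Hochberg adjusted P under 0.05, set on edgeR's quasi-likelihood test in place of the study's DESeq2, 0 of the 10 members were called in each of the 6 comparisons of 1 organ and day. Of all genes tested, edgeR called 1.33% in primary tumors, 0.444% in liver and 0% in lung metastases on day 7, and 4.64%, 0% and 0.0271% on day 14. At an unadjusted P under 0.05 the members numbered 2, 3 and 0 on day 7 and 3, 1 and 0 on day 14, where 23.1%, 27.1% and 5.22% and then 28.6%, 9.68% and 10.1% of all genes fell. DESeq2 called 1 member, *Bik* in the day 7 liver, and 0 in the other 5 comparisons, and of all genes with a count it called 2.07%, 9.88% and 0.403% on day 7 and 3.14%, 1.18% and 0.735% on day 14. Over both days with day as a term, edgeR again called 0 of 10 in each organ, against 4.08%, 5.67% and 0.173% of all genes in primary tumors, liver and lungs. There the members at an unadjusted P under 0.05 numbered 2, 3 and 0 (31.3%, 28.2% and 9.54% of all genes), and DESeq2 called 1, *Bik* in the liver, beside 2.77%, 6.9% and 0.604% of all genes.

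*Bik*, whose product binds anti-apoptotic members at the endoplasmic reticulum, showed the widest label difference in the liver. On day 7 it was 4.96, 4.56 and 7.97 CPM in the libraries labelled on and 0.922 and 0.794 CPM in those labelled off. The groups did not overlap. The difference was 2.67 on the log2 scale (SE 0.46, 6.38-fold, adjusted P = 0.0604), which missed the threshold in edgeR and passed in DESeq2 (adjusted P = 9.42e-07). Without the paired-end library it was 2.56 (adjusted P = 0.0639). On day 14 *Bik* was 7.05, 2.63 and 2.81 CPM labelled on and 1.02, 2.41 and 3.72 CPM labelled off, so the groups overlapped. Over both days the difference was 1.58 (SE 0.52, adjusted P = 0.0812), and 1.28 (adjusted P = 0.188) without the paired-end library. Without labelled off replicate 1 the day 7 difference of *Bik* was 2.84, and the paired-end library then stood alone as labelled off. *Bik* passed over both days without labelled off, day 14, replicate 3 (1.93, adjusted P = 0.0296). Hepatocyte genes (8 of 8 detected) moved with the same label on day 7, at 1043 to 1080 CPM in sum labelled on and 90.4 to 281 CPM labelled off, and on day 14 at 674 to 776 and 242 to 503 CPM. Their part in the difference of *Bik* was not tested. In primary tumors *Bik* was 0.306 to 1.39 CPM under either label.

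*Pmaip1*, which neutralizes MCL1, also lay higher in the liver libraries labelled on of day 7, at 245, 173 and 204 CPM against 116 and 83.7 CPM. The difference was 0.97 (SE 0.25, 1.97-fold, adjusted P = 0.0939), and 0.75 without the paired-end library. It was 1.27 without the other labelled-off library, where the paired-end library stood alone for that label. On day 14 the order was not kept, since labelled-off libraries held 401, 151 and 103 CPM and labelled-on libraries 233, 205 and 69.9 CPM. The library with 401 CPM was the highest of all 35. In the lungs *Pmaip1* was 91.9 to 213 CPM labelled on and 95.8 to 201 CPM labelled off, with full overlap.

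*Bmf* encodes a BH3-only protein that is held on the cytoskeleton until stress releases it. In the liver on day 14 it was 19.1, 16.9 and 28.9 CPM labelled on and 7.46, 10.4 and 15.1 CPM labelled off, without overlap (difference 0.96, SE 0.34, adjusted P = 0.448). Over both days the liver difference was 0.63 (SE 0.28, adjusted P = 0.167). It was 0.93 (adjusted P = 0.0535) without the paired-end library, whose *Bmf* level of 20.1 CPM was the highest of the liver libraries labelled off. With a covariate for *mt-Co3* counts it passed, at 0.74 (adjusted P = 0.0458). In primary tumors *Bmf* was 20.5 and 25.6 CPM on day 7 and 23.7, 41.9 and 34.7 CPM on day 14 in the libraries labelled on, and 20.7, 12.7 and 14.5 CPM and then 23.7 and 25.7 CPM in those labelled off. The groups overlapped, with a difference of 0.52 (SE 0.17, adjusted P = 0.067) over both days that passed in DESeq2.

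*Bcl2l11*, whose product binds all anti-apoptotic members, passed in no label comparison. It was 46.9 and 53.0 CPM labelled on and 38.3, 34.4 and 42.2 CPM labelled off in primary tumors on day 7 (difference 0.41, SE 0.13, adjusted P = 0.130). On day 14 the libraries labelled on were lower, at 35.7 to 40.5 CPM against 43.6 and 55.2 CPM (difference -0.27, adjusted P = 0.208). *Bbc3*, a target of p53, showed its clearest label difference in primary tumors of day 14, at 17.0, 14.2 and 15.5 CPM labelled on and 19.3 and 22.4 CPM labelled off. The groups did not overlap, and the difference of -0.34 (SE 0.14) had an adjusted P of 0.161.

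Of the anti-apoptotic genes, *Mcl1* lay higher in the liver libraries labelled on of day 7, at 443, 406 and 387 CPM against 269 and 266 CPM labelled off, with no overlap (difference 0.55, SE 0.18, adjusted P = 0.137, and 0.53 without the paired-end library). On day 14 the groups overlapped, at 473, 429 and 285 CPM and 279, 350 and 350 CPM. The difference over both days was 0.38 (SE 0.15, adjusted P = 0.120), 0.33 (adjusted P = 0.248) without the paired-end library and 0.49 (adjusted P = 0.0396) without labelled on, day 14, replicate 3. *Bcl2* in primary tumors of day 14 was 29.7, 30.3 and 30.0 CPM labelled on and 36.3 and 40.2 CPM labelled off (difference -0.27, adjusted P = 0.116). *Bcl2l1* overlapped between labels in every organ over both days, at 73.9 to 123 and 96.1 to 111 CPM in primary tumors, 128 to 180 and 93.6 to 211 CPM in liver and 156 to 211 and 156 to 248 CPM in lung metastases, labelled on given first. On day 7 alone its primary-tumor groups did not overlap, at 73.9 and 95.7 CPM against 96.1 to 105 CPM, and the difference did not pass.

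*Bak1*, an effector that resides on mitochondria in healthy cells, was the only member to pass the adjusted P in the 9 label comparisons by edgeR without further terms, and it did so in primary tumors. The libraries labelled on held 52.1 and 51.9 CPM on day 7 and 55.6, 52.5 and 55.4 CPM on day 14. Those labelled off held 58.1, 66.6 and 75.5 CPM and then 78.0 and 72.3 CPM. Every library labelled off lay above every library labelled on. The log2 difference of *Bak1* was -0.37 (SE 0.07, 1.29-fold, adjusted P = 0.00899) over both days and -0.38 (SE 0.08, 1.30-fold, adjusted P = 0.0214) on day 14, under the 2-fold line. In these comparisons 15% and 12.9% of all genes passed the adjusted P, 7.12% and 6.3% as lower. On day 7 alone the difference was -0.34 (SE 0.13, adjusted P = 0.18). With the mouse number as a block the adjusted P was 0.116 over both days and 0.103 on day 14, and in 1 fit of all 12 groups it was 0.0645 and 0.39. *Ggnbp1*, which shares exons with *Bak1*, held 1.20 to 2.05 CPM labelled on and 1.01 to 2.24 CPM labelled off there. The fibroblast sum on day 7 was 22753 to 24079 CPM labelled on and 11755 to 16749 CPM labelled off, without overlap. On day 14 it overlapped, at 8619 to 17039 and 12267 to 12997 CPM. The 6 acinar genes also split on day 7, at 683 to 884 and 1852 to 2991 CPM in sum, and overlapped on day 14. The epithelial sum overlapped on day 7 and split on day 14, at 5414 to 7699 and 4361 to 4794 CPM. Their part in the difference of *Bak1* was not tested.

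*Bax*, the effector that moves from the cytosol to mitochondria, overlapped between the labels in each of the 9 label comparisons. Over both days it was 41.5 to 72.0 CPM labelled on and 42.7 to 57.2 CPM labelled off in primary tumors, 67.7 to 112 and 57.3 to 85.0 CPM in liver and 64.8 to 138 and 61.8 to 112 CPM in lung metastases. In the lungs the lowest adjusted P of the 10 members over both days was 0.808. The mouse number as a block in the lungs of day 14 left 0 of 10 called while it raised the calls among all genes from 4 to 109. The median log2 difference of the 10 members over both days was 0.05 in primary tumors, 0.09 in liver and 0.02 in lung metastases, beside medians over all genes of 0.00, -0.02 and 0.00.

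**Figure D3:**
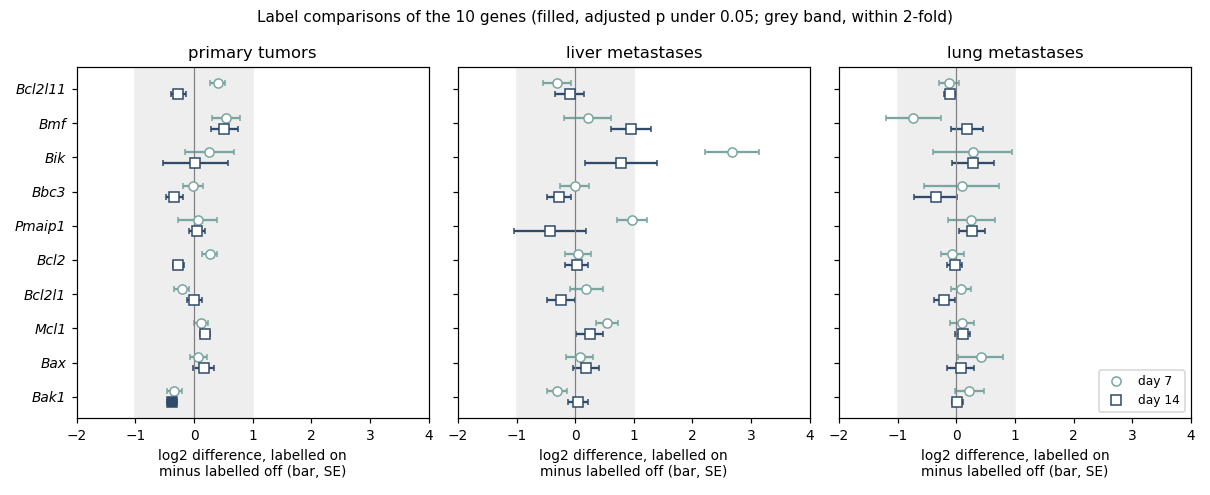
Log2 difference (labelled on minus labelled off) of each member with its SE, by organ; circles are day 7, squares day 14, filled symbols have an adjusted P under 0.05 and the grey band spans 2-fold. *Bik* in the liver on day 7 stood farthest out at 2.67 and *Bak1* in primary tumors on day 14 (-0.38) was the filled symbol.

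Whether the label difference itself varied between organs was tested in a fit of all 12 groups. In edgeR 0 of the 10 members passed the adjusted P in each contrast, whereas 9.54% (liver minus lung), 2.1% (liver minus primary tumor) and 0.0399% (lung minus primary tumor) of all genes passed. With the 2-fold rule 6.5%, 1.66% and 0.0342% of all genes were called in the same order. At an unadjusted P under 0.05 there were 3, 1 and 1 members, where 24.7%, 16.7% and 9.53% of all genes fell, and DESeq2 called 1, 0 and 0 beside 4.5%, 1.95% and 0.241% of all genes. These shares of the members lay near those of all genes. *Bik* came closest, with a liver response higher than the lung response by 1.50 (SE 0.55, adjusted P = 0.0822 in edgeR and 0.0426 in DESeq2) and higher than the primary-tumor response by 1.66 (SE 0.60, adjusted P = 0.142). Without the paired-end library these were 1.46 (adjusted P = 0.172) and 1.62 (adjusted P = 0.269). *Bmf* differed by 0.91 between liver and lung (SE 0.39, adjusted P = 0.14), and by 1.27 (adjusted P = 0.0764) without it. *Bak1* differed by 0.49 between lung and primary tumor (SE 0.14, adjusted P = 0.234), its lung levels being 57.4 to 67.4 CPM labelled on and 44.8 to 71.2 CPM labelled off. Without the library labelled on, lung, day 7, replicate 1, *Bik* and *Bmf* passed between liver and lung, at 2.10 (adjusted P = 0.0175) and 1.29 (adjusted P = 0.0316). *Bik* also passed without liver labelled off, day 14, replicate 3 (1.74, adjusted P = 0.0364), and *Mcl1* without liver labelled on, day 14, replicate 3 (0.44, adjusted P = 0.0421).

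More members passed between organs within a label. The contrasts came from the same 12-group fit, averaged over both days, and those with primary tumors share the primary-tumor libraries. Among libraries labelled off, 6 members passed as higher and 1 as lower in lung metastases than in primary tumors, where 18.9% and 16.1% of all genes did. Among those labelled on, 6 passed as higher and 0 as lower, where 12.8% and 13.1% of all genes did. In liver metastases against primary tumors, 3 members passed as higher labelled off (9.51% of all genes) and 6 labelled on (21.3%), and 0 as lower (7.76% and 18.6%). Between liver and lung, 2 passed as lower in liver labelled off (4.56%) and 0 of 10 in either direction labelled on (20.1%), where 2 had an unadjusted P under 0.05 and DESeq2 passed 2 (11.8%). In what follows a call between organs is a pass of the adjusted P, whatever the fold. The median log2 difference of the 10 members was 0.63 and 0.68 in lung minus primary tumor, labelled off and on, and 0.44 and 0.63 in liver minus primary tumor. The same medians over all genes were 0.07, 0.05, 0.06 and 0.06. In these sorted bulk samples a smaller share of a cell type and less RNA per cell cannot be told apart.

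Acinar genes (6 of 6 detected) summed to 683 to 3249 CPM in primary tumors, 0.148 to 0.638 CPM in liver metastases other than the paired-end library (371 CPM) and 0.0472 to 0.794 CPM in the lungs. The 7 fibroblast genes summed to 8619 to 24079 CPM in primary tumors and 157 to 1999 CPM in the lungs. These lists moved with every contrast against primary tumors and their part in the members' differences was not tested. Hepatocyte genes summed to 80.2 to 162 CPM in primary tumors, 242 to 1080 CPM in liver metastases other than the paired-end library (90.4 CPM) and 160 to 574 CPM in the lungs. Lung epithelial genes (6) summed to 9.82 to 30.5 CPM in primary tumors, 2.60 to 23.8 CPM in the liver and 69.4 to 505 CPM in the lungs. Both lists thus moved with the organs too, and their part was not tested.

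*Bcl2l1* showed the largest difference relative to its error. In primary tumors it was 96.1, 98.9, 105, 106 and 111 CPM labelled off and 73.9, 95.7, 123, 90.7 and 95.0 CPM labelled on. In lung metastases it ranged from 156 to 248 CPM with a median of 208 labelled off, and from 156 to 211 CPM with a median of 193 labelled on. All lung libraries lay above all primary tumors under either label. It was higher in the lungs by 0.97 labelled off (SE 0.15, 1.96-fold, adjusted P = 1.24e-05) and by 1.02 labelled on (SE 0.16, 2.03-fold, adjusted P = 4.89e-05), and no left-out library ended either pass, although the value labelled on was under 2-fold (0.90) without primary tumor day 7 replicate 1. Liver metastases lay between, at a mean of 151 ± 30.8 CPM (SD, n = 11) against 99.4 ± 12.9 (n = 10) and 194 ± 29.8 (n = 14). Liver exceeded primary tumors by 0.48 labelled off (adjusted P = 0.0358, and 0.64 with adjusted P = 0.00431 without the paired-end library) and 0.64 labelled on (adjusted P = 0.00136). The call labelled off was lost in 6 of 10 fits with 1 library left out: without liver day 7 replicate 1 (0.25, adjusted P = 0.345), liver day 14 replicate 1, and replicates 1 and 2 of the primary tumors of either day. Liver minus lung was -0.50 labelled off (adjusted P = 0.0285) and -0.33 (adjusted P = 0.204) without the paired-end library, where *Bcl2l1* was 93.6 CPM. That call was also lost without liver day 14 replicate 2, or without replicate 1 or 3 of the lungs of either day (adjusted P up to 0.0781).

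*Mcl1* was 246, 217, 218, 207 and 225 CPM labelled off and 228, 258, 228, 242 and 229 CPM labelled on in primary tumors. In lung metastases it ranged from 288 to 372 CPM (median 313) labelled off and 291 to 386 CPM (median 340) labelled on, and in liver metastases it was 269, 266, 279, 350 and 350 CPM labelled off and 285 to 473 CPM (median 418) labelled on. No library of either metastatic site reached down to the primary tumors. Lung minus primary tumor was 0.55 labelled off (SE 0.11, adjusted P = 0.000267) and 0.51 labelled on (SE 0.12, adjusted P = 0.00199). Liver minus primary tumor was 0.40 labelled off (SE 0.12, adjusted P = 0.0202; lost without liver day 7 replicate 1, primary tumor day 14 replicate 1 or day 7 replicate 2, adjusted P up to 0.0898, and kept without the paired-end library, adjusted P = 0.033) and 0.71 labelled on (SE 0.11, adjusted P = 1.73e-05). *Bcl2* went the other way without passing: its means were 35.4 ± 5.22 CPM in primary tumors, 32.3 ± 4.79 in liver and 29.8 ± 3.77 in lung metastases (SD), and lung minus primary tumor was -0.24 labelled off (adjusted P = 0.107) and -0.28 labelled on (adjusted P = 0.105).

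Among the BH3-only genes, *Pmaip1* was 85.2, 40.4, 54.5, 65.2 and 76.1 CPM in primary tumors labelled off and 54.5, 68.8, 60.3, 80.2 and 66.6 CPM in those labelled on. In the lungs it ranged from 95.8 to 201 CPM (median 111) and from 91.9 to 213 CPM (median 148), above all primary tumors. In the liver it was 116, 83.7, 401, 151 and 103 CPM labelled off and 69.9 to 245 CPM (median 205) labelled on, each overlapping the primary tumors through 1 library. *Pmaip1* was over 2-fold higher in both sites under both labels: in the lungs by 1.01 (adjusted P = 0.0136) and 1.23 (adjusted P = 0.00853), in the liver by 1.16 (adjusted P = 0.0197) and 1.47 (adjusted P = 0.000902), off and on. The liver value labelled off was 0.76 (adjusted P = 0.0777) without the library of 401 CPM, labelled off, day 14, replicate 1, and 1.26 (adjusted P = 0.0155) without the paired-end library. That call was also lost without liver day 7 replicate 1 (1.03, adjusted P = 0.105), either primary tumor of day 14 or primary tumor day 7 replicate 2. The lung call was lost labelled off without primary tumor day 14 replicate 1 or day 7 replicate 2 (adjusted P up to 0.0773), and labelled on without lung or primary tumor day 7 replicate 1 (adjusted P up to 0.0926). Its binding partner *Mcl1* passed in the same 4 contrasts.

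*Bik* was 0.935, 0.749, 1.25, 0.607 and 0.885 CPM in primary tumors labelled off and 1.39, 0.939, 0.935, 0.903 and 0.306 CPM labelled on, on 4 to 27 reads per library. It was 1.28 to 3.35 CPM (median 1.62) in the lungs labelled off, above the primary tumors labelled off and overlapping those labelled on, and 0.917 to 3.78 CPM (median 2.33) labelled on, with overlap. In the liver labelled on it was 2.63 to 7.97 CPM (median 4.76), above all primary tumors. In the liver labelled off it was 0.794 to 3.72 CPM (median 1.02), overlapping the primary tumors, and that contrast did not pass. The differences were 1.21 (SE 0.40, 2.31-fold, adjusted P = 0.0197) and 1.37 (SE 0.43, 2.58-fold, adjusted P = 0.0207) for the lungs and 2.38 (SE 0.44, 5.21-fold, adjusted P = 9.24e-05) for the liver labelled on. The lung value labelled on was 0.68 (adjusted P = 0.276) without the library of day 7, replicate 1 (3.72 CPM), and its call was also lost without either primary tumor of day 7 or that of day 14 replicate 3. Labelled off the lung call was lost without lung day 7 replicate 3 (0.94), primary tumor day 14 replicate 1 (1.08) or day 7 replicate 2 (1.07). The liver value kept its call whichever library was left out.

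*Bmf* set the liver apart instead. Labelled off it was 8.93, 20.1, 7.46, 10.4 and 15.1 CPM in the liver, 14.6 to 41.9 CPM (median 25.3) in the lungs and 20.7, 12.7, 14.5, 23.7 and 25.7 CPM in primary tumors. Liver minus lung was -1.09 (SE 0.28, 2.13-fold lower in the liver, adjusted P = 0.014), with overlapping groups, and -1.44 (adjusted P = 0.0115) without the paired-end library. This call was lost without the liver library of day 7, replicate 1 (-0.87, adjusted P = 0.0721). Against primary tumors the value was -0.67 (adjusted P = 0.123), and -1.02 (adjusted P = 0.0276) without the paired-end library. Labelled on, *Bmf* was 15.6 to 28.9 CPM in the liver and 8.43 to 35.9 CPM in the lungs, and no contrast passed. *Bcl2l11* passed in none of the 6 organ contrasts, with means of 43.0 ± 6.91, 43.6 ± 8.33 and 42.8 ± 5.37 CPM (SD) in primary tumors, liver and lungs.

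**Figure D4:**
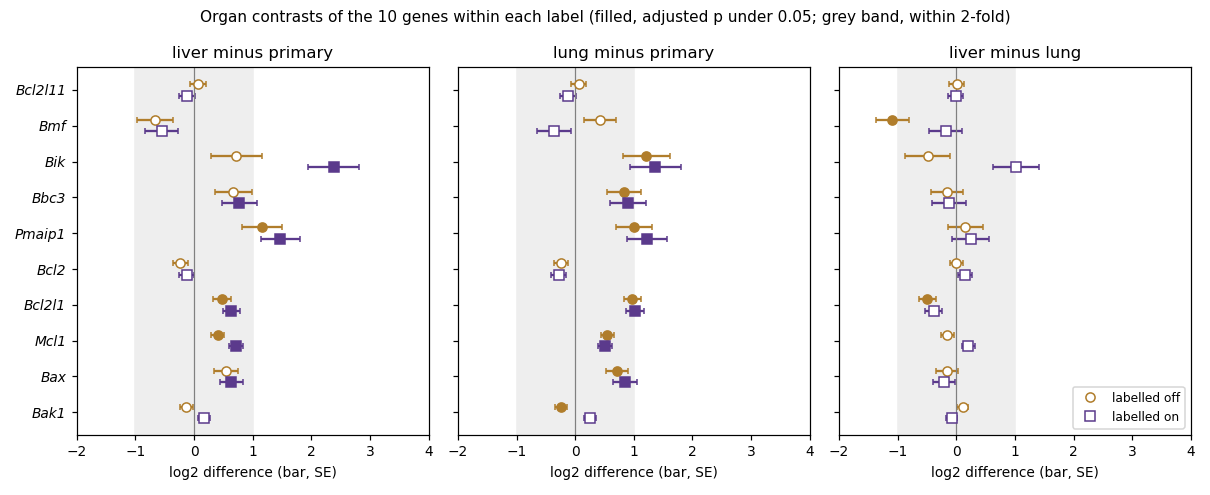
Log2 differences between organs, averaged over both days, for each member with its SE (3 panels: liver minus primary tumor, lung minus primary tumor, liver minus lung); circles are labelled off, squares labelled on, filled symbols have an adjusted P under 0.05 and the grey band spans 2-fold. *Bcl2l1* and *Mcl1* were filled in both contrasts against primary tumors under both labels and *Bcl2l11* was filled in none.

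The effectors split. *Bax* was 42.7, 47.1, 50.1, 57.2 and 50.9 CPM in primary tumors labelled off and 41.5, 55.0, 72.0, 47.4 and 51.7 CPM labelled on. In the lungs it ranged from 61.8 to 112 CPM (median 76.0) labelled off, above the primary tumors of that label, and from 64.8 to 138 CPM (median 84.4) labelled on. It was higher in the lungs by 0.71 (SE 0.19, adjusted P = 0.00471) and 0.85 (SE 0.20, adjusted P = 0.00334), and in the liver labelled on by 0.63 (SE 0.20, adjusted P = 0.0125). Labelled on, the lung call was lost without lung day 7 replicate 2 (0.54, adjusted P = 0.0781) and the liver call without primary tumor day 7 replicate 1 (0.48, adjusted P = 0.139). The liver value labelled off, 0.55 (adjusted P = 0.0674), was 0.67 (adjusted P = 0.032) without the paired-end library. *Bak1* had nearly the same mean in each organ, 61.8 ± 10.3, 63.0 ± 6.91 and 61.1 ± 7.86 CPM (SD). Labelled off it was 44.8 to 71.2 CPM (median 59.6) in the lungs against 58.1 to 78.0 CPM (median 72.3) in primary tumors, a difference of -0.24 (SE 0.10, adjusted P = 0.0496), a call that 6 of the 13 fits with 1 library left out did not give. Labelled on the difference was 0.25 (adjusted P = 0.083).

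*Bbc3* and *Bax* differed between lung libraries with and without *mt-Co3* counts, a split that the labels do not name. In the 8 lung libraries without *mt-Co3* counts *Bbc3* was 15.2 to 29.8 CPM (mean 22.2), and in the 6 with such counts it was 33.8 to 67.1 CPM (mean 47.3), with no overlap. *Bax* was 61.8 to 76.3 CPM (mean 68.5) and 88.0 to 138 CPM (mean 109) in the same libraries, again with no overlap. In the liver *Bbc3* was 25.2 to 31.0 CPM in 7 libraries without and 28.8 to 40.0 CPM in 4 libraries with *mt-Co3* counts, and the ranges of *Bax* overlapped. The other members overlapped between the lung libraries with and without such counts. The split was seen in the data, so no test is given for it, and what the *mt-Co3* counts stand for was not tested. How many of all genes split in the same way was not determined, so the split is not shown to be particular to these genes. A term for *mt-Co3* counts raised the label calls among all genes in the lungs of day 14 from 4 to 127.

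This bears on the organ contrasts of both genes. *Bbc3* was 17.9, 17.3, 20.7, 19.3 and 22.4 CPM in primary tumors labelled off and 15.2 to 67.1 CPM (median 26.1) in the lungs, a difference of 0.83 (SE 0.29, adjusted P = 0.0256). Among libraries without *mt-Co3* counts it was 0.14 (adjusted P = 0.485). Labelled on, *Bbc3* was 20.9, 15.7, 17.0, 14.2 and 15.5 CPM in primary tumors and 19.1 to 40.3 CPM (median 31.2) in the lungs, a difference of 0.90 (SE 0.31, adjusted P = 0.0329), and 0.52 (adjusted P = 0.0317) without those libraries. The lung difference of *Bax* was 0.45 (adjusted P = 0.00898) labelled off and 0.37 (adjusted P = 0.0681) labelled on among libraries without *mt-Co3* counts. Liver minus primary tumor for *Bbc3* labelled on was 0.77 (SE 0.30, adjusted P = 0.0421) and 0.66 (adjusted P = 0.00217) without them. Leaving out 1 library at a time ended the lung call of *Bbc3* in 6 of 13 fits labelled off and 7 of 11 labelled on, and the liver call labelled on in 8 of 11 (adjusted P up to 0.217).

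**Figure D5:**
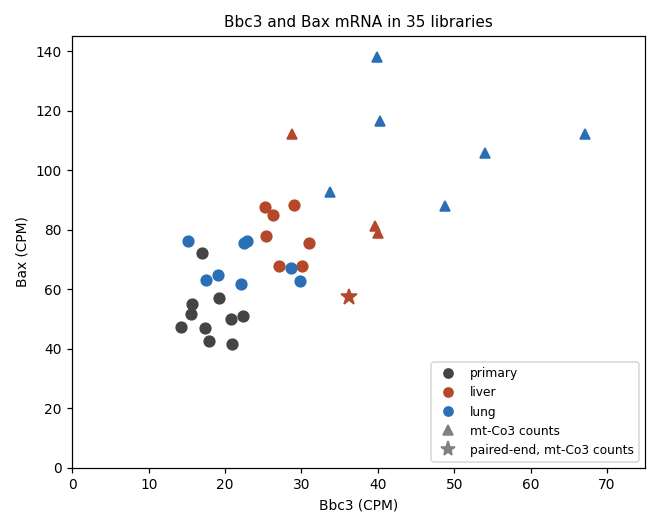
*Bax* against *Bbc3* in CPM, one point per library, by organ and with libraries holding *mt-Co3* counts as triangles. The 6 lung libraries with such counts (33.8 to 67.1 CPM of *Bbc3*) lay apart from the other 8 (15.2 to 29.8 CPM).

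Between day 7 and day 14 within an organ and label, edgeR called 0 of 10 members in each of the 6 contrasts, with 1.07% of all genes called in the liver labelled off and 0% in the others. At an unadjusted P under 0.05 the members numbered 2 in the liver labelled off, 1 each in primary tumors and lungs labelled on and 0 in the remaining 3, and DESeq2 called 0. The 2 were *Bik* (1.48, adjusted P = 0.22) and *Pmaip1* (1.14, adjusted P = 0.235). Without the paired-end library these were 1.39 and 0.93, and *Pmaip1* was 0.34 without the library of 401 CPM. *Bmf* in the lungs labelled on was 22.3 and 8.43 CPM on day 7 and 35.9, 34.3, 26.9 and 24.1 CPM on day 14, without overlap (0.96, adjusted P = 0.603).

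Some members had similar patterns over the 35 libraries. Pearson's r of log2 CPM was 0.79 between *Bik* and *Mcl1*, 0.77 between *Pmaip1* and *Mcl1*, 0.71 between *Bbc3* and *Bax* and -0.53 between *Bcl2* and *Bax*. The libraries share organ, depth and sort, so these values are a description. Among 17546 other genes the most similar pattern to *Mcl1* was that of *Mafk* (0.93) and *Fbxo34* (0.93), to *Bik* that of *Tiam1* (0.90) and *Mknk2* (0.90), and to *Bax* that of *Vcpkmt* (0.90) and *Nt5c* (0.90). For *Bbc3* they were *Ier5* (0.89) and *Arf6* (0.88), for *Pmaip1* *March7* (0.88) and *Arl4a* (0.88), and for *Bcl2l1* *Mast1* (0.88) and *Pgap1* (0.86). *Bcl2* was closest to *Gab1* (0.84) and *Clstn1* (0.80), *Bmf* to *Tgm2* (0.81) and *Cnnm2* (0.77), *Bak1* to *Pold2* (0.78) and *Rab5c* (0.77), and *Bcl2l11*, with the least similar neighbors, to *Inpp5f* (0.70) and *Mfsd8* (0.66).

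The rest of the pathway was read through 4 lists: 15 other genes of the BCL2 family, 13 of the apoptosome, caspases and inhibitors of apoptosis, 10 of death receptor signaling and 19 upstream regulators of the members. In primary tumors over both days, 2 of 13 apoptosome genes passed as higher labelled on, 1 of 9 tested death receptor genes passed in each direction, as did 1 of 18 upstream regulators, and 0 of 11 other family genes passed (2 at an unadjusted P under 0.05, and 1 in DESeq2). In the liver over both days, 1 of 13 family genes passed as lower, 1 of 13 apoptosome genes and 1 of 9 death receptor genes as higher and 1 of 19 upstream regulators as lower. All genes passed at 15% and 8.52% in these comparisons. In the lungs 0 passed in every list over both days (0.203% of all genes), with 2, 0, 0 and 0 genes at an unadjusted P under 0.05 in edgeR, and DESeq2 passed 0 in each. The median log2 differences of the lists in the liver were 0.02, 0.10, 0.06 and -0.13, beside -0.02 for all genes.

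Most of the genes called in these lists were called in the liver. *Bnip3*, a hypoxia-induced mitochondrial BH3-like gene, was 1.93 to 18.5 CPM in the 6 liver libraries labelled on and 13.1 to 151 CPM in the 5 labelled off, a difference of -2.90 (SE 0.69, adjusted P = 0.0337). *E2f1*, a cell cycle factor that can induce BH3-only genes, was 8.99 to 16.7 against 19.7 to 42.3 CPM, a difference of -1.16 (SE 0.22, adjusted P = 0.0176). *Tnfsf10*, the death ligand TRAIL, was 1.37 to 6.08 against 0.334 to 1.83 CPM, a difference of 2.06 (SE 0.49, adjusted P = 0.0342). Without the paired-end library *E2f1* was -1.01 (adjusted P = 0.03), whereas *Bnip3* (-2.62, adjusted P = 0.0659) and *Tnfsf10* (1.85, adjusted P = 0.0674) missed the threshold. In primary tumors over both days *E2f1* was 26.5 to 37.2 CPM labelled on and 35.5 to 52.1 CPM labelled off (-0.45, SE 0.11, adjusted P = 0.0234). *Trp63*, a p53 relative, was 0.602 to 2.51 and 0.230 to 0.526 CPM there (1.71, SE 0.43, adjusted P = 0.0232). Leaving out 1 library ended the liver pass in 2 of 11 fits for *E2f1* and 8 each for *Bnip3* and *Tnfsf10* (adjusted P up to 0.0562, 0.102 and 0.0849). It ended the primary-tumor pass in 6 of 10 for *E2f1*, which was under 2-fold there, and 5 for *Trp63* (up to 0.0793 and 0.067). With the mouse number as a block none of these 4 genes passed over both days (adjusted P 0.0946 to 0.197). The hepatocyte sums given beside *Bik* moved with the liver comparison, and their part in it was not tested.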

How the data were processed

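RNA-seq counts of 35 libraries were analysed. Per the labels, poly(A) RNA was sequenced as 75-bp single-end reads, with 1 library given as paired-end, and the submitters' processing notes name FastQC 0.11.5, Trimmomatic 0.36, STAR 2.5.3a and featureCounts 1.6.3 on GRCm38. The deposited values are whole-number counts per gene, not normalized by the authors, and the lengths used for CPM per kb are those of the file. The table had 0 columns without a sample.

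Counts were analysed with edgeR 4.0.16 (limma 3.58.1) in R 4.3.3: filterByExpr (minimum count 10, minimum total 15), TMM scaling and robust quasi-likelihood tests, separately for each organ and day (label), per organ with day as a term (label over both days), and in 1 fit of all 12 groups (differences of response, organs, days). P values were adjusted by Benjamini-Hochberg over all genes tested. A gene was called at over 2-fold and an adjusted P under 0.05, and passed at the latter alone. CPM in the text are TMM-scaled, and log2 CPM carry a prior count of 2. The tests were tried on simulated counts with known changes. Alternatives were DESeq2 1.42.0, its size factors, no filter, no fold threshold, leaving out each library, a term for *mt-Co3* counts, other sets of libraries, and the mouse number as a block. Leaving out all libraries with *mt-Co3* counts was chosen after seeing the data. The members and lists were chosen with earlier results of these data known. Besides the members and *Smad4*, up to 4 called genes per list (1 gene is not reported here) and the 2 genes most similar to each member were named. Figures were drawn with Python 3.11.15 and matplotlib 3.10.9.

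Deviations from the group means were positively correlated between libraries with the same mouse number in the liver on day 14 (0.122 to 0.550 over 3 pairs). In the lungs on day 14 they were 0.476 to 0.552 over 4 pairs. The same number was often not the best match: in the liver only number 3 was so in both directions, and in the lungs no number was. In primary tumors of day 14 both numbers were, at correlations of only 0.0425 and 0.0267. Neither the labels nor these values establish that the number pairs libraries, so the block is an alternative only. Counting limits the precision of *Bik* most. The floor covers counting error only, whereas each SE comes from the fit and includes the spread between libraries.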

Additional observations from a re-analysis of the deposited data

Results flagged for a closer look

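*Bcl2l1* in the lungs labelled Smad4 off on day 7 was flagged because 1 library, replicate 4, stood away from the others: it was at 161 CPM and the others at 206, 210 and 216 CPM, so that its gap on the log2 scale took a share of 0.841 of the range of the group. This was 1 of 30 sets of values examined, the 10 members in each of the 3 groups of 4 libraries, which share libraries, and chance flags about 1 in 20. Replicate 4 was the library of this group with *mt-Co3* counts.

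Of the other genes of the pathway that were named, 2 had a label difference that itself differed between organs in edgeR's 12-group fit. The response of *Bnip3* in the liver minus that in the lungs was -3.51 (SE 0.89, adjusted P = 0.0155) and that of *E2f1* -0.93 (SE 0.24, adjusted P = 0.0178). Without the paired-end liver library these values were -3.17 (adjusted P = 0.0596) and -0.82 (adjusted P = 0.0734). Among libraries without *mt-Co3* counts that of *Bnip3* was -1.70 (adjusted P = 0.311), and it was -1.84 (adjusted P = 0.254) without the lung library labelled on, day 7, replicate 2. Without that library the value of *E2f1* was -0.72 (adjusted P = 0.107). No such flag fell on the 10 members.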

How the results depend on the processing

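No value changed its direction, and 0 members were called in any label comparison of primary tumors or lungs under the alternatives that kept the 2-fold rule. *Bik* alone made the count 1 instead of 0 in the liver on day 7 with DESeq2, without a filter, with a term for *mt-Co3* counts and in the 12-group fit, and over both days with DESeq2 and the 12-group fit. In the response of liver minus lung DESeq2 gave 1. With no fold threshold the counts were 1 in primary tumors on day 14 and over both days. Between organs, no fold threshold gave 2 (liver minus lung, off), 3 and 6 (liver minus primary tumor, off and on) and 7 and 6 (lung minus primary tumor). In lung minus primary tumor labelled off the count was 1 in place of 2 with DESeq2, its size factors, no filter or that label alone. In liver minus primary tumor labelled off it was 2 in place of 1 without *mt-Co3* libraries, and in liver minus lung labelled on 1 in place of 0 with a term for them. The cause of these changes was not tested.

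Leaving out 1 library gave 0 to 2 called members in the liver on day 7 (2 without labelled off replicate 1), 0 to 1 over both days there (1 without labelled off, day 14, replicate 3) and 0 to 2 in the response of liver minus lung (2 without lung labelled on, day 7, replicate 1). It gave 0 to 1 in liver minus lung labelled off (0 without liver day 7 replicate 1) and 0 to 1 labelled on (1 without lung day 7 replicate 1). It gave 0 to 2 in liver minus primary tumor labelled off (2 without the paired-end library) and in lung minus primary tumor labelled off (0 without primary tumor day 7 replicate 2). It gave 0 to 3 in lung minus primary tumor labelled on (0 without primary tumor day 7 replicate 1). The pass of *Bak1*, which was under 2-fold, was lost in 4 of 5 such fits in primary tumors on day 14 (-0.42 to -0.34). Over both days it was lost in 0 of 10 (-0.41 to -0.33). A fit without 1 library of a pair assumes that the lone library varies like the other group. In each fit without liver labelled off, day 7, replicate 1, the paired-end library stood alone for that group.

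The mouse number as a block changed whether a member passed only for *Bak1*, whose values were -0.39 (adjusted P = 0.103) on day 14 and -0.33 (adjusted P = 0.116) over both days. Of the other pathway genes it ended the passes over both days of *E2f1* (adjusted P = 0.0946), *Bnip3* (0.197) and *Tnfsf10* (0.125) in the liver. It also ended those of *E2f1* (0.163) and *Trp63* (0.156) in primary tumors, and of both differences of response given above. Whether libraries that share a number are paired is not established in any organ or day. Calls among all genes moved by over 1.5 times with the tool or block: with DESeq2 from 192 to 539 in primary tumors, 71 to 2887 in liver and 0 to 112 in lungs on day 7, and from 0 to 339 and 4 to 214 in liver and lungs on day 14. The block gave 0 in primary tumors and liver on day 7, 132 in place of 616 in primary tumors and 14 in place of 959 in liver over both days, and 0 in place of 1140 in the response of liver minus lung. The 12-group fit gave 42 in place of 192 and 16 in place of 661 in primary tumors on days 7 and 14 and 230 over both days, but 3097 in place of 71, 254 in place of 0 and 2755 in place of 959 in liver. The term for *mt-Co3* counts gave 1022 and no filter 977 in the liver on day 7, and no filter 549 in primary tumors. In the lungs over both days the count was 28, and 20 to 187 under the alternatives.

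On total counts in place of TMM, 12 of 120 group levels (log2 CPM) moved past 1 SD, by at most 0.146: *Bmf* 4.53, *Bcl2l1* 6.66, *Mcl1* 7.66 and *Bak1* 6.14 in primary tumors labelled off on day 14, *Bcl2* 4.99, *Mcl1* 7.95 and *Bak1* 5.85 in those labelled on, *Bak1* 5.74 in those labelled on of day 7, *Mcl1* 7.92 and *Bak1* 5.82 in liver on day 7 (off and on), *Bax* 6.20 in liver labelled off and *Bak1* 6.07 in lungs labelled on of day 14.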
